A study of Homo sapiens with 8 samples.

Results

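Glycolysis and the response to low oxygen were followed through 38 genes: 17 glycolytic enzymes, 3 transporters, 3 regulators of glycolytic flux, 3 genes of oxygen sensing and 12 other targets of the transcription factor HIF1A. The genes were picked by symbol from a fixed list, which was chosen with earlier results of these data known. All 38 were among the 15041 genes that the 8 count tables list, although CA9 appeared in 7 of the 8. The cells were MDA-MB-231, an established human triple-negative breast cancer line grown in DMEM with serum, and single cells were picked and sequenced with a modified Smart-seq2 method. The libraries formed 4 groups of 2: wild type (WT) without treatment, WT given 5 Gy of ionizing radiation and cultured for 4 h, cells with knockdown of ATM without treatment, and ATM knockdown cells given the same dose and time. ATM is the kinase that starts signalling from DNA double-strand breaks, and the design asks how transcripts respond to radiation with and without it. The labels state neither how ATM was knocked down nor whether the cells were 1 clone, nor whether the 2 libraries of a group were separate cultures. Where both came from 1 culture, the spread behind each p-value is technical. All WT titles end in one suffix and all knockdown titles in another, so handling and genotype cannot be told apart.

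HIF1A is the oxygen-regulated subunit of the hypoxia-inducible factor. In normal oxygen the prolyl hydroxylases EGLN1 and EGLN3 mark the protein for degradation, so its level is set largely after transcription, and the transcript is not a measure of the protein. Its targets include most glycolytic enzymes, glucose and lactate transporters, VEGFA for blood vessel growth, the mitophagy receptors BNIP3 and BNIP3L, carbonic anhydrase CA9, which acts on pH outside the cell, and collagen prolyl hydroxylases. MDA-MB-231 is known for high glycolysis even in normal oxygen. EGLN1 and EGLN3 are HIF1A targets themselves, so the class called other HIF1A targets below holds 14 genes when sums or medians are given.

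In all, 363 of 378 cells were kept, and the 15 left out all came from knockdown libraries. No barcode was shared between libraries, and the kept cells of a library held 9321268 to 24256471 counts, of which 9.36% to 10.3% were mitochondrial in WT, 11.1% and 11.96% in untreated knockdown and 10.2% and 10.6% in irradiated knockdown libraries. The part of this difference in the results below was not tested. ATM itself measured 57.9 and 31.1 CPM (counts per 1e6 counts of the library) in the untreated WT libraries and 28.0 and 33.2 CPM in the irradiated ones. It measured 13.8 and 33.0 CPM in the untreated libraries labelled ATM knockdown and 13.0 and 14.03 CPM in the irradiated ones, so the second untreated knockdown library lay within the WT range by this measure. In that library 1 cell held 24.9% of the ATM counts, and the share of cells with an ATM count, after thinning each cell to 69000 counts, was 35%, against 47.8% to 67.4% in the WT libraries and 25.6% to 32.5% in the other knockdown libraries. The markers VIM, CD44, AXL, CAV1 and MSN were detected in every library, SPARC at no more than 1.45 CPM. The luminal marker CDH1 reached at most 2.02 CPM and PGR 0.289 CPM. GATA3, of the same luminal list, ranged from 35.7 to 54.8 CPM, and KRT8 and EPCAM are also of that list. The epithelial keratin KRT8 ranged from 634 to 1271 CPM and was lower in every knockdown library, whereas EPCAM ranged from 15.5 to 61.3 CPM and was higher in every knockdown library, and the part of this genotype difference in the results below was not tested. The summed level of 6 replication genes was 387 to 427 CPM in untreated WT, 609 to 1134 CPM in irradiated WT, 555 to 623 CPM in untreated and 669 to 690 CPM in irradiated knockdown libraries. The sum of 6 mitosis genes was 1164 to 2579, 1015 to 2269, 1439 to 1882 and 757 to 924 CPM in the same order. Whether these shifts bear on the members' values was not tested.

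The core of the hypoxia response element, which HIF1 binds, is ACGTG or GCGTG. RefSeq (GRCh38.p14) gave the 250 bases before the annotated start for 34 of the 38 genes, and ACGTG on either strand, with overlapping matches such as CACGTG counted once, stood in 15 of them, or 44.1%. The same letters stood in 18.5% of all 35116 promoters of that table and in 22.5% of the 11550 promoters of genes in the count tables. At least 2 separate matches stood in 6 members, or 17.6%, against 3.54% of listed genes. Among the classes, 8 of 17 enzymes (47.1%) and 7 of 11 other HIF1A targets (63.6%) held the letters. The other form, GCGTG on either strand, stood in 12 of the 34 (35.3%) and in 42.9% of listed genes, and either form in 22 (64.7%) and 54.7%. ENO1 held GCGTG but no ACGTG in this window, and PKM and TPI1 held neither. A match is a run of letters, not a binding site, and a window without one says nothing about the factor. Shown here are 4 promoters of genes that measured lower in the knockdown libraries (LDHA, PGK1, BNIP3 and P4HA1) and 1 of a gene that measured lower after radiation in both genotypes (DDIT4). Each is written 5′ to 3′ toward the start, with ACGTG or its reverse complement, and any overlapping pair of them, in capitals, and GCGTG is not marked.
LDHA, lactate dehydrogenase A, chr11:18394313-18394562, plus strand, 3 matches, 73, 87 and 185 bases before the start: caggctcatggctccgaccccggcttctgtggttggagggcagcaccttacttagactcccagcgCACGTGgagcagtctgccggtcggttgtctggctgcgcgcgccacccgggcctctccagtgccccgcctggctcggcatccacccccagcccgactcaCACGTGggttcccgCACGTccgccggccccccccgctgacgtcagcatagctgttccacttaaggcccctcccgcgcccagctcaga
PGK1, phosphoglycerate kinase 1, chrX:78103998-78104247, plus strand, 2 matches, 183 and 202 bases before the start: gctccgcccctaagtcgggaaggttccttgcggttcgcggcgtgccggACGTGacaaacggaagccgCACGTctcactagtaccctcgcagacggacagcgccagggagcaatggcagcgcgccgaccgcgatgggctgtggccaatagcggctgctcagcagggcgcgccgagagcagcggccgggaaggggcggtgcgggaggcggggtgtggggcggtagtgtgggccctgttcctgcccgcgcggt
BNIP3, mitophagy receptor, chr10:131981924-131982173, minus strand, 1 match, 134 bases before the start: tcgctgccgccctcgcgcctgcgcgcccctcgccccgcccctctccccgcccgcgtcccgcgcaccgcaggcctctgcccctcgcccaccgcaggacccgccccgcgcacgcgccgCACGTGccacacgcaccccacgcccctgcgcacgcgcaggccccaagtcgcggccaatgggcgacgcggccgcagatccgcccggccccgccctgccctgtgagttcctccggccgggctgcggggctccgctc
P4HA1, collagen prolyl 4-hydroxylase subunit, chr10:73096867-73097116, minus strand, 1 match, 86 bases before the start: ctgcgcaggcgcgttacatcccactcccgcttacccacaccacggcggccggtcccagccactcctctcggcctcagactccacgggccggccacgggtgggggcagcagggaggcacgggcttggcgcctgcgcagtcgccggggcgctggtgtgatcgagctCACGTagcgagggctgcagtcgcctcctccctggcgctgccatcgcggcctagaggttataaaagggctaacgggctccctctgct
DDIT4, inhibitor of mTORC1 signalling, chr10:72273674-72273923, plus strand, 1 match, 125 bases before the start: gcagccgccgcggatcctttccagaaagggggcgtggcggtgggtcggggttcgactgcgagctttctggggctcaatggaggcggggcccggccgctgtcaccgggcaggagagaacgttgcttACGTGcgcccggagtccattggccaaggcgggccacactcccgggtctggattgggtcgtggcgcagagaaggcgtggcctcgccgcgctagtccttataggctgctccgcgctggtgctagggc

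**Figure D1:**
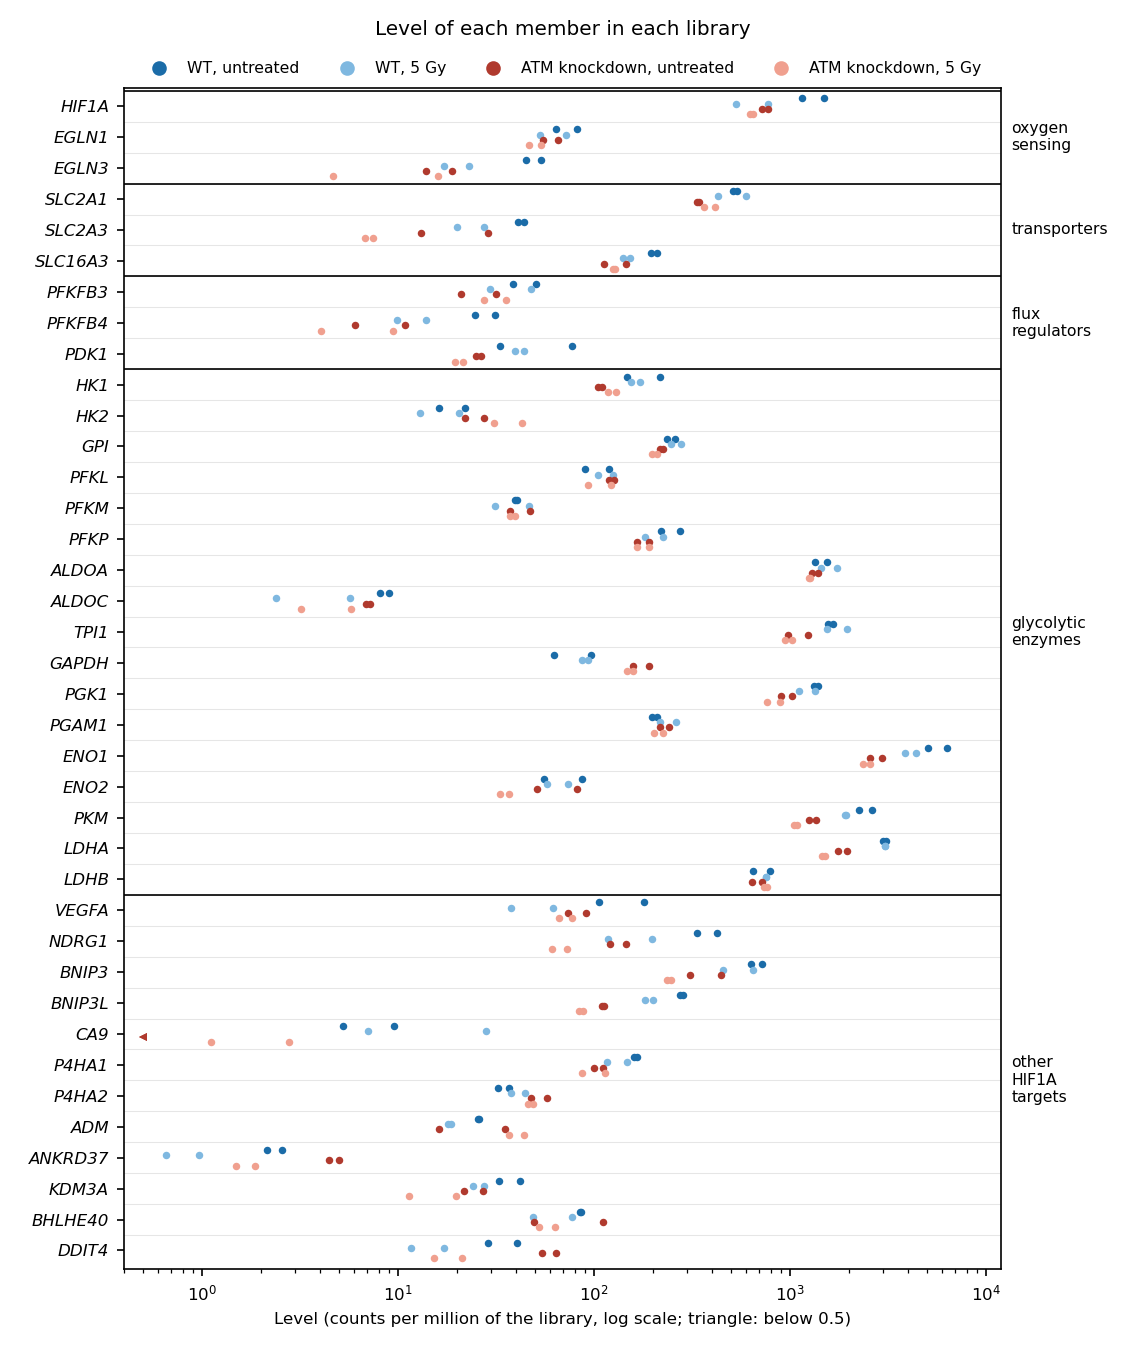
Level of each of the 38 genes in each of the 8 libraries, in CPM on a log axis, grouped by role and coloured by group; each point is 1 library, and triangles stand for values below 0.5. ENO1, PKM, LDHA and BNIP3L in the knockdown libraries sit below all WT libraries, and GAPDH sits above them.

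Both classes took a smaller share of the transcriptome in the knockdown libraries. The other targets also took a smaller share in the irradiated libraries of each genotype, and the enzymes in those of the knockdown cells only. The 17 glycolytic enzymes held 1.64% and 1.87% of all counts in the untreated WT libraries, 1.64% and 1.49% in the irradiated WT libraries, 1.19% and 1.05% in the untreated knockdown libraries and 0.981% and 1.01% in the irradiated knockdown libraries. Every knockdown library was below every WT library, and the irradiated and untreated WT libraries overlapped. In the knockdown cells both irradiated libraries were below both untreated ones. The 14 other HIF1A targets held 0.198% and 0.201% in untreated WT, 0.143% and 0.127% in irradiated WT, 0.128% and 0.0992% in untreated knockdown and 0.0766% and 0.0858% in irradiated knockdown libraries. Here the irradiated libraries of each genotype were below the untreated ones, and irradiated WT library 2 lay just below untreated knockdown library 1. Set against each other, there were 12.1 and 10.7 target counts per 100 enzyme counts in untreated WT, 8.70 and 8.53 in irradiated WT, 10.8 and 9.43 in untreated knockdown and 7.80 and 8.51 in irradiated knockdown libraries. This ratio was lower in the irradiated libraries of both genotypes, while the knockdown and WT libraries overlapped. ENO1, LDHA and PKM together made up 50.3% to 64.4% of the enzyme counts, so the enzyme sum mostly follows these 3 genes. The target sum also leans on few genes. In untreated WT the highest of the 14 were BNIP3, NDRG1 and BNIP3L (means of 678, 379 and 280 CPM), followed by P4HA1 (163 CPM). These shares are descriptions of 2 libraries per group, with no test over the members.

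**Figure D2:**
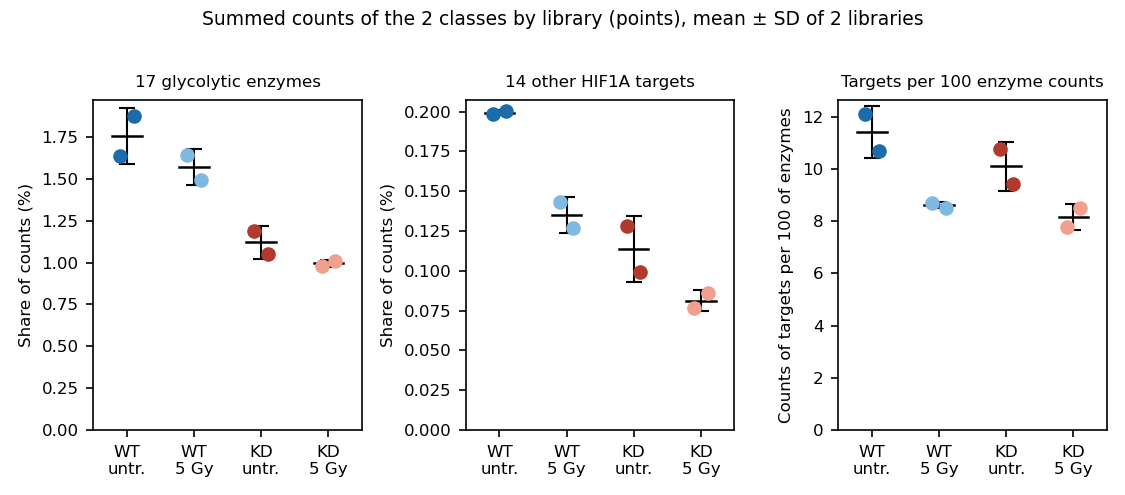
Share of all counts held by the 17 glycolytic enzymes (left) and the 14 other HIF1A targets (middle), in percent, and target counts per 100 enzyme counts (right); points are libraries, bars the mean and SD of 2 libraries, KD stands for ATM knockdown and untr. for untreated. The enzyme share drops from 1.49% or more in WT to 1.19% or less in knockdown libraries, and the ratio is lower after 5 Gy in both genotypes.

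Without radiation, the knockdown libraries differed from WT in many members, mostly downward. The members were chosen with earlier results of these data known, which limits what their counts beside the shares of all genes can show. In edgeR's quasi-likelihood test with Benjamini-Hochberg adjustment over 12456 genes, 17 of 38 members passed at an adjusted p under 0.05, 16 lower and 1 higher, where 9.94% of all genes tested passed (5.11% lower and 4.83% higher). Both knockdown libraries lay below both WT libraries in 24 of 38 members, where 24% of all genes did. They lay above both WT libraries in 5 members. The share of all genes lying above is not reported here, for this or the other comparisons. Of the enzymes, 6 of 17 were lower and 1 was higher (median log2 difference -0.22), and 6 of 14 other HIF1A targets were lower (median -0.67), beside -0.01 over all genes. With radiation in both genotypes, 9 of 38 members passed, all lower, where 5.1% of all genes passed (2.92% lower and 2.18% higher): 5 enzymes (median over the 17 -0.41), 3 targets (median over the 14 -0.42) and SLC2A3. Here 21 of 38 members had both knockdown below both WT libraries, where 22.6% of all genes did, and 6 members had both above. A contrast added after the data were seen was the mean of the genotype difference over both treatments. There 20 members passed, 19 lower and 1 higher, where 16.2% of all genes passed (8.49% lower and 7.67% higher). In 13 of 38 members all 4 knockdown libraries lay below all 4 WT libraries, where 7.27% of all genes did. In 2 members they lay above all 4.

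Several of these calls depended on 1 library. Without untreated knockdown library 2, the one with the higher ATM level, 9 members passed in the untreated comparison, and BNIP3, HK1, PGK1, TPI1, SLC16A3, EGLN3, PFKFB4 and P4HA1 did not (edgeR adjusted p = 0.0589 to 0.207). HK1, SLC16A3, PFKFB4 and P4HA1 also missed the threshold without untreated WT library 2 (0.0857 to 0.189), EGLN3 and P4HA1 without untreated WT library 1 (0.0745 and 0.092), and P4HA1 without untreated knockdown library 1 (0.0801). Other settings also ended calls: HK1 without the largest cells (0.156), EGLN3 and PFKFB4 in limma (0.106 and 0.0753), and HK1, SLC16A3, PFKFB4 and P4HA1 when only the untreated libraries were fitted (0.0573 to 0.0721). BNIP3L, CA9, ENO1, GAPDH, HIF1A, LDHA, NDRG1, PKM and SLC2A1 passed in every alternative run. Of these, CA9 had only 2 counts in the untreated knockdown libraries and entered the test only through the groups in which it was detected. Some members passed only in alternatives. DESeq2's Wald test, which passed 1840 and 1088 of 12456 genes without and with radiation, added PDK1, VEGFA and PFKP without it (0.0220 to 0.0326). With radiation it added CA9, ENO2, ALDOA, GAPDH and SLC2A1 (0.00399 to 0.0485). There limma, with 740 genes, added CA9, ENO2, HK2 and P4HA1 (0.0226 to 0.0457). In the irradiated comparison PGK1 missed without irradiated WT library 1 (0.112) or irradiated knockdown library 1 (0.119), and SLC2A3 missed without irradiated WT library 2 (0.0961) or either irradiated knockdown library (0.0704 and 0.100). The count there rose to 14 without either untreated WT library.

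**Figure D3:**
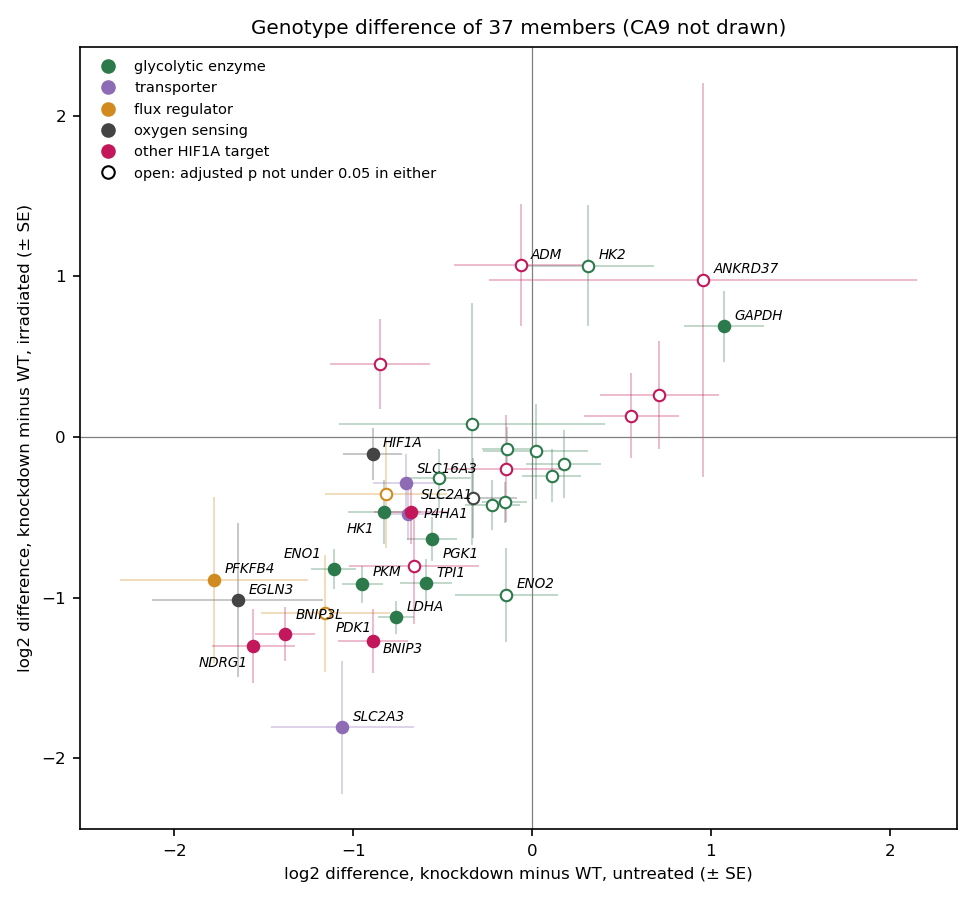
Log2 difference of 37 members, knockdown minus WT, in untreated cells (horizontal) against irradiated cells (vertical), with standard errors and colours by role; filled points passed in at least 1 of the 2 comparisons. Most filled points sit at lower left, from PGK1 at -0.56 and -0.64 to NDRG1 at -1.56 and -1.30, and GAPDH is the only filled point at upper right.

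ENO1, PKM and LDHA, which act at the end of the pathway, were lower in the knockdown libraries in both treatments and in every alternative run. ENO1 (chromosome 1, 8861000 to 8879250), the enolase that makes phosphoenolpyruvate, measured 5099 and 6355 CPM in untreated WT, 4429 and 3854 CPM in irradiated WT, 2948 and 2574 CPM in untreated knockdown and 2371 and 2558 CPM in irradiated knockdown libraries. All knockdown libraries were below all WT libraries, and the log2 difference was -1.11 ± 0.13 (SE, edgeR adjusted p = 7.51e-05) without and -0.82 ± 0.12 (0.00157) with radiation. PKM, the pyruvate kinase of the last energy-yielding step, measured 2248 and 2633, 1910 and 1941, 1369 and 1261, and 1084 and 1057 CPM in the same order of groups. Its groups did not overlap by genotype either, and it differed by -0.95 ± 0.12 (0.000124) and -0.92 ± 0.12 (0.000358). LDHA, which turns pyruvate into lactate, stood at 2984 and 3091 CPM in untreated WT and 3078 and 3063 CPM in irradiated WT, but at 1968 and 1756 CPM in untreated and 1508 and 1455 CPM in irradiated knockdown libraries. The difference was -0.76 ± 0.10 (0.0003) without and -1.12 ± 0.10 (2.14e-05) with radiation. LDHB, the other lactate dehydrogenase subunit, ranged from 648 to 794 CPM in WT and 643 to 766 CPM in knockdown libraries, which overlapped (log2 difference -0.14 and -0.07, adjusted p = 0.573 and 0.841).

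TPI1, the triose phosphate isomerase, measured 1563 and 1659 CPM in untreated WT, 1966 and 1554 CPM in irradiated WT, 1242 and 974 CPM in untreated knockdown and 943 and 1026 CPM in irradiated knockdown libraries. PGK1, the first enzyme of the pathway that yields ATP, measured 1323 and 1400, 1347 and 1112, 1023 and 897, and 770 and 891 CPM in the same order. Both were lower in every knockdown than in every WT library, by -0.59 ± 0.15 and -0.91 ± 0.15 for TPI1 and by -0.56 ± 0.14 and -0.64 ± 0.14 for PGK1 without and with radiation (edgeR adjusted p = 0.018, 0.0023, 0.0178 and 0.0144). GAPDH went the other way, with 62.95 and 97.1 CPM in untreated WT, 93.8 and 87.4 CPM in irradiated WT, 192 and 159 CPM in untreated knockdown and 159 and 148 CPM in irradiated knockdown libraries. Every knockdown library was above every WT library, and the difference was 1.07 ± 0.22 (0.00628) without radiation and 0.69 ± 0.22 (0.0923) with it. GENCODE 29 names 62 pseudogenes of GAPDH, which can share reads with it, so its level is uncertain. ALDOA, the main aldolase, showed 1342 and 1541, 1737 and 1448, 1398 and 1299, and 1254 and 1272 CPM, and did not pass in either comparison (-0.15, adjusted p = 0.5, and -0.41, 0.0843). PGAM1 ranged from 199 to 263 CPM over all libraries. GPI ranged from 236 to 277 CPM in WT and from 199 to 225 CPM in knockdown libraries, which did not overlap. Neither passed in edgeR's test. In the mean over both treatments GPI passed by DESeq2's Wald test (adjusted p = 0.0163) and limma (0.0183).

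Of the hexokinases and phosphofructokinases, which commit glucose to the pathway, only HK1 passed. HK1, a hexokinase that traps glucose in the cell, measured 149 and 217 CPM in untreated WT, 156 and 172 CPM in irradiated WT, 110 and 105 CPM in untreated knockdown and 118 and 130 CPM in irradiated knockdown libraries. It was lower in every knockdown library and passed without radiation (-0.83 ± 0.20, edgeR adjusted p = 0.0172) but not with it (-0.47, 0.223). HK2, the hexokinase often raised in tumours, measured 22.1 and 16.3, 20.6 and 13.1, 27.6 and 21.97, and 43.15 and 30.8 CPM, with overlap between the untreated genotypes only, and did not pass (0.31 and 1.07, 0.654 and 0.126). The phosphofructokinase PFKP measured 220 and 276, 183 and 225, 191.4 and 167, and 191.5 and 167 CPM, and missed the threshold (-0.52 and -0.26, 0.0858 and 0.493). PFKL ranged from 90.6 to 128 CPM and PFKM from 31.3 to 47.3 CPM, both with overlap between genotypes. The minor isoforms ALDOC (9.03 and 8.11, 5.69 and 2.39, 7.20 and 6.91, and 5.75 and 3.20 CPM) and ENO2 (86.9 and 55.9, 74.0 and 58.0, 82.4 and 51.4, and 37.0 and 33.2 CPM) did not pass. ENO2 was lowest in both irradiated knockdown libraries (log2 difference from irradiated WT -0.98, adjusted p = 0.0713).

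Pairs of related members were also compared within a library, where their ratio does not depend on scaling and does not show which of them differed. There were 3.89 to 4.60 LDHA counts per LDHB count in the WT and 1.90 to 2.74 in the knockdown libraries. HK1 counts per HK2 count were 6.72 to 13.3 in WT and 2.74 to 4.76 in knockdown libraries, and P4HA1 counts per P4HA2 count were 2.61 to 4.95 and 1.78 to 2.47. In these 3 pairs no knockdown library reached the lowest WT library. The ranges overlapped for PFKP over PFKL (1.46 to 3.04 and 1.31 to 1.80), for BNIP3 over BNIP3L (2.23 to 3.23 and 2.68 to 4.07) and for ENO1 over ENO2 (58.7 to 114 and 35.8 to 77.0). The ranges also overlapped for PFKP over PFKM, ALDOA over ALDOC, SLC2A1 over SLC2A3, EGLN1 over EGLN3 and PFKFB3 over PFKFB4. All the pairs were looked at after the values were seen and have no test.

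The 3 transporters were lower in the knockdown libraries of either treatment, though not always past the threshold. SLC2A1, the main glucose transporter GLUT1, measured 516 and 540 CPM in untreated WT, 601 and 432 CPM in irradiated WT, 335 and 344 CPM in untreated knockdown and 364 and 414 CPM in irradiated knockdown libraries. All knockdown libraries were below all WT libraries, and the difference passed without radiation (-0.69 ± 0.17, edgeR adjusted p = 0.015) but not with it (-0.48, 0.118). SLC2A3, the high-affinity transporter GLUT3, measured 43.99 and 40.9 CPM in untreated WT, 20.1 and 27.65 CPM in irradiated WT, 28.98 and 13.1 CPM in untreated knockdown and 7.52 and 6.81 CPM in irradiated knockdown libraries, the lowest of all. It passed between the irradiated groups (-1.81 ± 0.41, 0.0196; 0.0961 without irradiated WT library 2, 0.0704 and 0.100 without irradiated knockdown library 1 or 2) and not between the untreated ones (-1.06, 0.111). SLC16A3, the lactate exporter MCT4, measured 196 and 211, 153 and 141, 147 and 113, and 128 and 125 CPM, with each WT group above the knockdown group of the same treatment. Its difference passed without radiation only (-0.70 ± 0.19, 0.0251, against -0.29, 0.443), and not when untreated knockdown library 2 was left out (0.207).

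Of the flux regulators, PFKFB4, which sets fructose 2,6-bisphosphate, measured 24.8 and 31.3, 9.87 and 13.9, 10.9 and 6.06, and 9.49 and 4.07 CPM in the order used above. The untreated WT libraries stood above all others, and the untreated genotype difference was -1.78 ± 0.52 (edgeR adjusted p = 0.0431; 0.180 without untreated knockdown library 2). Its relative PFKFB3 measured 38.7 and 50.8, 47.7 and 29.4, 21.1 and 31.9, and 27.6 and 35.7 CPM and did not pass (-0.82 and -0.35, 0.157 and 0.643). PDK1, which keeps pyruvate out of mitochondria by inhibiting pyruvate dehydrogenase, measured 33.35 and 77.05, 39.7 and 44.01, 26.7 and 24.97, and 19.5 and 21.55 CPM. Every knockdown library was below every WT library, yet neither single comparison passed (-1.16, 0.0564, and -1.10, 0.103), while their mean did (-1.13 ± 0.26, 0.00706). Without radiation PDK1 passed by DESeq2's Wald test (0.0220) and limma (0.0335), and with radiation by neither.

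HIF1A itself was highest in the untreated WT libraries, at 1502 and 1161 CPM, and measured 533 and 777 CPM in irradiated WT, 719 and 772 CPM in untreated knockdown and 629 and 649 CPM in irradiated knockdown libraries. The other 3 groups overlapped one another, except that both irradiated knockdown libraries lay below both untreated ones. The untreated genotype difference was -0.89 ± 0.16 (edgeR adjusted p = 0.00281), and with radiation it was -0.10 (0.804). EGLN3 was also highest in the untreated WT libraries, with 53.8 and 44.9, 23.1 and 17.3, 18.8 and 13.9, and 4.69 and 16.1 CPM, and passed without radiation (-1.65 ± 0.48, 0.0403; 0.121 without untreated knockdown library 2). EGLN1 measured 81.7 and 64.3, 52.9 and 72.1, 55.0 and 65.5, and 54.1 and 46.8 CPM, with overlap in every comparison except irradiated against untreated knockdown libraries.

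Among the other targets, both mitophagy receptors and NDRG1 were lower in the knockdown libraries in both treatments. BNIP3L measured 285 and 275 CPM in untreated WT, 201 and 183 CPM in irradiated WT, 110 and 113 CPM in untreated knockdown and 87.9 and 84.5 CPM in irradiated knockdown libraries. The 4 groups did not overlap, and the genotype differences were -1.38 ± 0.17 (edgeR adjusted p = 0.000124) and -1.23 ± 0.17 (0.000719) without and with radiation. BNIP3 measured 636 and 719, 650 and 458, 448.5 and 310, and 235 and 248 CPM in the same order, a difference of -0.89 ± 0.20 (0.0094) and -1.27 ± 0.20 (0.00185). All its knockdown libraries were below all WT libraries, but 39 pseudogenes named after it make its level uncertain. NDRG1, a stress-responsive gene strongly induced by hypoxia, measured 336 and 423, 118 and 198, 147 and 121, and 61.6 and 73.0 CPM, so the irradiated WT and untreated knockdown libraries overlapped. Its genotype difference was -1.56 ± 0.23 (0.000675) without and -1.30 ± 0.23 (0.00437) with radiation.

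CA9 was low everywhere and lowest in the knockdown libraries. It measured 9.56 and 5.26 CPM in untreated and 28.1 and 7.01 CPM in irradiated WT. It measured 0.131 and 0 CPM in untreated and 1.11 and 2.785 CPM in irradiated knockdown libraries. The untreated knockdown libraries held 2 counts, both in 1 cell, against 337 in untreated WT, a ratio of 126 with a counting interval of 34.5 to 1041 (exact, 95%, counting error only). The irradiated libraries held 76 and 400 counts, a ratio of 7.12 (5.56 to 9.22). CA9 passed without radiation (edgeR adjusted p = 0.00268) and not with it (0.0592, but 0.00399 by DESeq2's Wald test and 0.0447 in limma), and it entered the test only through the groups in which it was detected. P4HA1 measured 166 and 160, 147.5 and 117, 111 and 101, and 87.4 and 114 CPM, and passed without radiation (-0.68 ± 0.20, 0.0462; 0.06 with no scaling beyond library totals, and 0.182 without untreated knockdown library 2). VEGFA, the angiogenic growth factor, measured 181 and 107, 37.7 and 62.2, 91.5 and 73.8, and 66.8 and 77.0 CPM, with both irradiated knockdown libraries above both irradiated WT libraries, and its genotype difference did not pass (-0.85, 0.0685, and 0.45, 0.422).

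Some targets did not follow this direction. DDIT4 measured 40.6 and 28.99 CPM in untreated WT, 11.7 and 17.2 CPM in irradiated WT, 63.98 and 54.2 CPM in untreated knockdown and 15.3 and 21.2 CPM in irradiated knockdown libraries. It was higher in both untreated knockdown libraries than in untreated WT, a log2 difference of 0.71 that did not pass (edgeR adjusted p = 0.21). ADM, a vasodilator peptide, measured 25.6 and 26.1, 18.7 and 18.0, 35.1 and 16.25, and 36.8 and 44.04 CPM, with both irradiated knockdown libraries above both irradiated WT libraries (1.07, 0.128). BHLHE40 measured 86.04 and 85.6, 77.8 and 48.99, 111.5 and 49.4, and 52.5 and 63.4 CPM, with overlap between genotypes. P4HA2 (32.4 to 57.9 CPM) and ANKRD37 (0.661 to 5.04 CPM) had higher and KDM3A (11.4 to 41.9 CPM) lower values in the knockdown than in the WT libraries of the same treatment, and none of the 3 passed.

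In WT cells, HIF1A and 2 of its targets measured lower after radiation, while the enzymes showed no common shift. None of these 3 calls held in every alternative run. In edgeR's quasi-likelihood test 3 of 38 members passed, all lower, where 1.65% of all genes passed (0.739% lower): HIF1A (log2 change -1.002 ± 0.16, adjusted p = 0.0086), NDRG1 (-1.24 ± 0.23, 0.0175) and VEGFA (-1.50 ± 0.28, 0.0191). None of the 17 enzymes passed (2 at an unadjusted p under 0.05, which 13.9% of all genes had, 1 by DESeq2's Wald test and 0 by limma), and their median log2 change was -0.02, against -0.49 over the 14 other HIF1A targets and -0.01 over all genes. Of all 12456 genes, 569 passed by DESeq2's Wald test and 197 by limma. The radiation comparisons use the same 8 libraries as those of genotype. In 10 of the 14 targets and 3 of the 17 enzymes both irradiated WT libraries were below both untreated ones, where 23% of all genes were. In 1 target and 1 enzyme they were above. The 3 calls were lost when only the 4 WT libraries were fitted (adjusted p = 0.0686, 0.0785 and 0.0848). NDRG1 was also lost without irradiated WT library 1 (0.066), and VEGFA without that library (0.0687) or untreated WT library 1 (0.0553). In VEGFA 1 cell held 30.4% of the counts of untreated WT library 1 and another 33.3% of those of irradiated WT library 2.

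Below the threshold in WT were DDIT4 (-1.24, edgeR adjusted p = 0.0875), ENO1 (-0.45, 0.0906), BNIP3L (-0.52, 0.14), EGLN3 (-1.27, 0.222) and PFKFB4 (-1.22, 0.294), in each of which the irradiated and untreated WT libraries did not overlap. DDIT4 passed by DESeq2's Wald test (0.0214), by limma (0.0352), without the largest cells (0.0412) and with no low-count filter (0.025). BNIP3L passed by DESeq2 (0.028), and EGLN3 with no low-count filter (0.0461). ENO1 passed with no low-count filter (0.00402), by DESeq2's Wald test (0.035) and without untreated WT library 1 (0.00297) or any 1 knockdown library (0.0257 to 0.0367). LDHA, in contrast, had a log2 change of 0.04 ± 0.10 (0.928) in WT. SLC2A1 had one of -0.01 ± 0.16 (0.99).

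In the knockdown cells, no member passed after radiation in edgeR's test, where 0.225% of all genes passed. An unadjusted p under 0.05 was seen in 9 members, where 8.86% of all genes had one. DESeq2's Wald test passed 4 members and limma 1, where of all 12456 genes they passed 178 and 122. In 18 of 38 members both irradiated libraries were below both untreated ones, where 19.1% of all genes were, and in 6 members they were above. By class, 8 of 17 enzymes and 7 of 14 other HIF1A targets were below, and 3 enzymes and 2 targets above. DDIT4 was nearest (-1.69 ± 0.34, edgeR adjusted p = 0.0631), followed by NDRG1 (-0.98 ± 0.23, 0.117), and for both the irradiated libraries were below the untreated ones. Both passed when any 1 of the WT libraries was left out (0.00797 to 0.0204 for DDIT4, 0.0107 to 0.0191 for NDRG1). Without untreated knockdown library 2, 4 members passed: DDIT4, NDRG1, SLC2A3 and BNIP3 (0.0156 to 0.033). HIF1A had a log2 change of -0.21 ± 0.16 (0.751) and VEGFA of -0.19 ± 0.28 (0.914). LDHA (-0.32, 0.304), PKM (-0.29, 0.457) and ENO2 (-0.93, 0.307) were the enzymes with an unadjusted p under 0.05. The medians were -0.16 over the enzymes and -0.42 over the other HIF1A targets. CA9 had 76 counts after and 2 before radiation in these cells, with 45.5% and 31.5% of the counts of the 2 irradiated libraries each in 1 cell. It passed as higher in 5 alternatives, among them DESeq2's Wald test (0.0184).

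**Figure D4:**
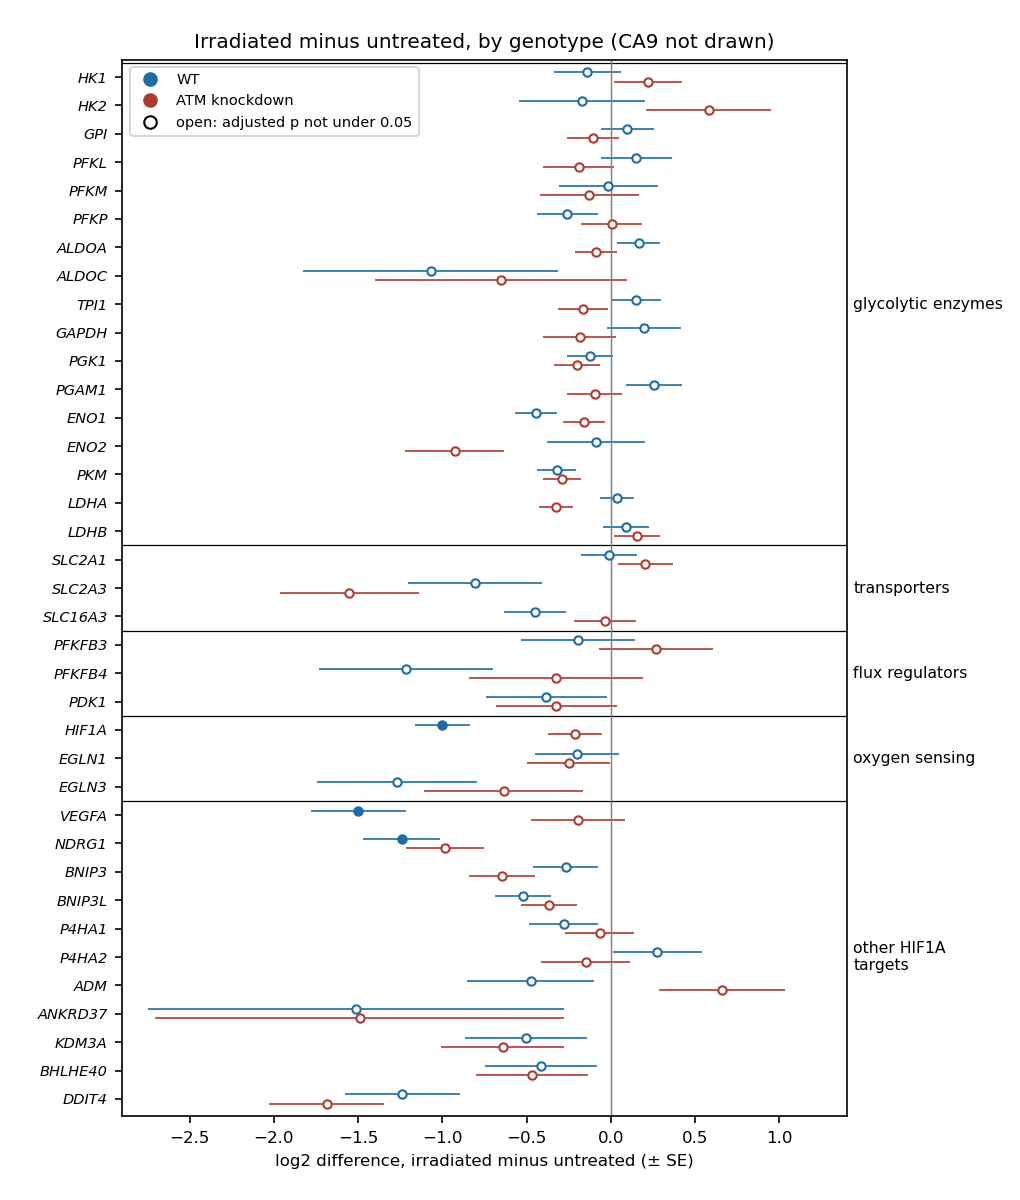
Log2 change of 37 members, irradiated minus untreated, in WT (blue) and ATM knockdown cells (red), with standard errors, ordered by role; filled points passed at an adjusted p under 0.05. Only HIF1A, VEGFA and NDRG1 in WT are filled, and most enzyme points lie near 0 while DDIT4 and NDRG1 lie well to the left in both genotypes.

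Averaged over both genotypes, 4 members passed, all lower, where 1.49% of all genes passed (0.851% lower): NDRG1 (-1.11 ± 0.16, edgeR adjusted p = 0.0025), DDIT4 (-1.46 ± 0.24, 0.0067), HIF1A (-0.61 ± 0.11, 0.0137) and VEGFA (-0.85 ± 0.20, 0.046). DDIT4, HIF1A and NDRG1 passed in every alternative run, whereas VEGFA missed the threshold without untreated WT library 1 (0.0837), irradiated WT library 1 (0.0791) or irradiated knockdown library 1 (0.0879). The count rose to 7 without untreated WT library 1, to 6 without untreated WT library 2 and to 8 without untreated knockdown library 2. CA9, which was higher after radiation, passed in 7 alternatives of this mean, among them DESeq2's Wald test (0.00441). The test of the difference between the 2 responses passed in no member in edgeR's test, where 0.185% of all genes passed, in none by DESeq2's Wald test or limma, and 5 members had an unadjusted p under 0.05, as did 9.5% of all genes. HIF1A (0.79 ± 0.23, adjusted p = 0.27) and VEGFA (1.31 ± 0.39, 0.28) had the smallest p. Both passed without untreated WT library 2 (0.0416 and 0.0433), and HIF1A without irradiated WT library 2 (0.0368). That HIF1A and VEGFA passed in WT and not in knockdown cells is therefore not shown to be a difference between genotypes.

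Single cells showed that the lower enzyme level was spread over most knockdown cells. After thinning to 69000 counts, which 330 cells reached and 33 did not, the median enzyme sum per cell was 16014 and 17529 CPM in untreated WT, 16348 and 14920 CPM in irradiated WT, 11159 and 9645 CPM in untreated knockdown and 9855 and 10065 CPM in irradiated knockdown libraries. The share of cells below the lowest WT median was 84.8% to 97.7% in the knockdown and 32.6% to 50% in the WT libraries. With this cut no WT library can exceed 50%, here or for the targets below, so the WT side was bounded in advance. The sum of the 14 other HIF1A targets had medians of 1899 and 1572, 1319 and 1268, 957 and 920, and 681 and 775 CPM in the same order. Here 63.6% to 90.7% of knockdown cells and 18.6% to 50% of WT cells were below the lowest WT median. The target sum varied more between cells of a library (coefficient of variation 43.3% to 73.5%) than the enzyme sum (20.2% to 33.8%), and it also has fewer counts.

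Across the cells of a library, the enzyme and target sums were positively related, with a Spearman rho of 0.52 and 0.70 in untreated WT, 0.77 and 0.73 in irradiated WT, 0.62 and 0.39 in untreated knockdown and 0.17 and 0.40 in irradiated knockdown libraries. These are descriptions over 33 to 46 cells that share a library. With the depth of the cell before thinning, the enzyme sum had a rho of -0.19 to 0.17 and the target sum of -0.28 to 0.21. With the replication genes the target sum had a rho of -0.37 to -0.01 and the enzyme sum of -0.39 to 0.01. With the mitosis genes these were -0.38 to -0.11 and -0.30 to -0.01. Whether this bears on the relation of the enzyme and target sums was not tested. Most of the enzyme pairs examined had a positive rho in every library, with 0.35 to 0.67 for LDHA and PGK1, 0.27 to 0.72 for TPI1 and LDHA, and 0.30 to 0.56 for ENO1 and LDHA, whereas LDHA and PKM ranged from -0.08 to 0.42. PGK1 and BNIP3, 1 member of each class, had 0.20 to 0.71, and ENO1 and BNIP3 0.22 to 0.78. HIF1A transcript was not such a partner, with -0.09 to 0.24 for VEGFA, -0.25 to 0.25 for NDRG1 and -0.27 to 0.11 for ENO1, and LDHA with LDHB had -0.36 to 0.25.

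**Figure D5:**
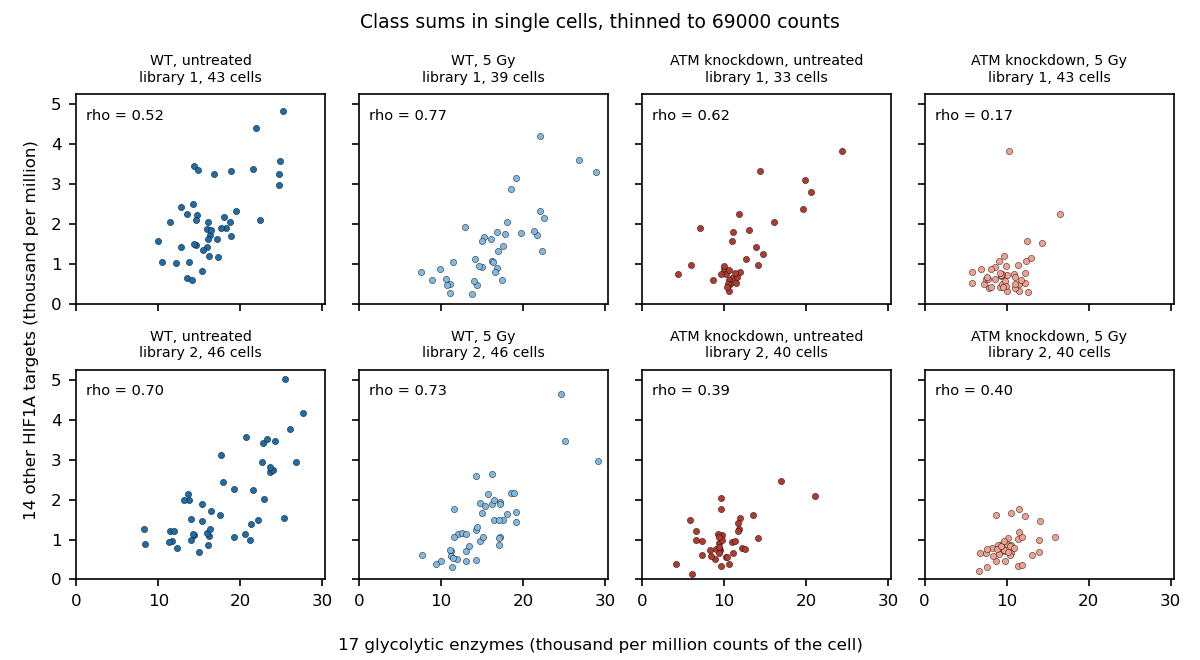
Summed level of the 14 other HIF1A targets against that of the 17 glycolytic enzymes in single cells thinned to 69000 counts, as labelled on the axes, 1 panel per library with its Spearman rho; each point is a cell. WT cells spread along a diagonal, and most knockdown cells sit in the lower left corner, with a rho of 0.17 to 0.62.

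The share of cells with at least 1 count, after thinning, depends on the level of a gene as well as on the group. Of the 38 members, 15 were found in at least 90% of the cells of every library, and ALDOC, CA9 and ANKRD37 in under 50% in all. For SLC2A3 the share was 45.7% to 65.1% in WT and 22.5% to 45.5% in knockdown libraries, for PDK1 55.8% to 76.1% and 40% to 51.5%, for BNIP3L 95.7% to 100% and 72.5% to 87.5%, for HK1 90.7% to 100% and 78.8% to 88.4%, and for KDM3A 53.5% to 65.2% and 34.9% to 48.5%. These 5 of the 38 were the members with every knockdown below every WT library. The share of all genes that did so was not computed, so whether the members stand out by this measure was not tested. Without thinning, SLC2A3, BNIP3L and KDM3A still did not overlap, HK1 and PDK1 did, and EGLN3 and NDRG1 no longer did. ANKRD37 was above in every knockdown library, with 2.17% to 8.70% of WT and 9.30% to 18.2% of knockdown cells, but without thinning the ranges overlapped (6.25% to 29.2% and 18.6% to 29.3%). DDIT4 had a count in 69.6% to 88.4% of untreated and 42.5% to 55.8% of irradiated cells, taking both genotypes together.

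Further genes of the pathway were read from lists apart from the 38 members, and the shares of all genes that passed in each comparison apply here too: 9.94% without radiation and 5.1% with it between genotypes, and 1.65% for radiation in WT. Of 26 further HIF targets tested, 5 were lower in untreated knockdown libraries, with a median of -0.44. PLOD2, a collagen lysyl hydroxylase, differed most among the lower ones (-2.11 ± 0.24, edgeR adjusted p = 8.85e-05), and the others were INSIG2 and, named after their values were seen, RIOK3, LOX and LOXL2. With radiation in both genotypes, AK4 (-0.83 ± 0.19, 0.0207) and FAM162A (-0.93 ± 0.25, 0.046) were lower. In WT, 3 of the 26 were lower after radiation: ERRFI1 (-1.43 ± 0.25, 0.0121), PLOD2 (-1.31 ± 0.24, 0.0164) and INSIG2 (-0.86 ± 0.20, 0.0424). Among 14 genes of the HIF machinery tested, EPAS1, which encodes HIF2A, was lower in untreated knockdown libraries (-1.20 ± 0.28, 0.014); 1 of 14 is 7.14%, near the share of all genes. The pentose phosphate pathway, which branches off glycolysis to make NADPH and ribose, held 1 of 7 genes that was higher without radiation, TALDO1 (0.57 ± 0.15, 0.0217). In the mean over both treatments, added after the data were seen, TALDO1, PGD and, named after their values were seen, TKT and RPIA were higher. Of 13 genes of pyruvate entry and lactate transport tested, PDHA1 of the pyruvate dehydrogenase complex was higher (0.79 ± 0.19, 0.0168) and BSG, the partner of lactate transporters, named after its value was seen, lower (-0.49 ± 0.14, 0.0377) in untreated knockdown libraries, which is 15.4% of the list.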

How the data were processed

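For each library the authors deposited 1 table of raw counts, with coding genes in one dimension and single cells in the other. Per the submitters' processing notes, Trimmomatic 0.36, HISAT2 2.1.0, HTSeq 0.9.1 and hg38 were used; per the labels' protocols, cells were picked singly and 3' mRNA libraries were made after modified Smart-seq2. Whether the counts are reads or molecules, and whether strand was used, is not given in the sources used here, so members that overlap other genes or have pseudogenes carry an added uncertainty. Genes missing from a table were taken as 0.

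Cells with at least 1000 genes and 5000 counts were kept and their counts summed per library, so large cells weigh most (65 cells exceeded 2 times the median of their library). CPM are counts per 1e6 of that total. Groups were taken from the labels. The test was edgeR 4.0.16 (filterByExpr, TMM scaling, quasi-likelihood, 4 groups in 1 fit with 4 residual degrees of freedom, Benjamini-Hochberg over 12456 genes, threshold 0.05). All 38 members passed the filter. The code was tested on simulated data. Per-cell measures used counts thinned to 69000 with a fixed seed. Intervals cover counting error only.

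Alternatives were other scaling, no filter, other cell filters, DESeq2 1.42.0, limma 3.58.1 on log2 of the mean CPM per cell plus 1, fits of the compared groups only, and each library left out. Software was R 4.3.3 and Python 3.11.15 with scipy 1.17.1, pandas 2.3.3 and numpy 2.4.6. Gene positions came from GENCODE 29 and promoters from RefSeq. The members and lists were chosen with earlier results of these data known. Values of every library are printed for members that passed a comparison, that changed by at least 1 on the log2 scale without overlap at an average log2 CPM of at least 5, or that belong to a fixed set of 28; others are given by range. Of the wider lists, only genes that passed are named, at most 6 per comparison by smallest p, except where marked. ESR1, FOXA1, CD3E, CD68, PAX2, MIF and SCO2, which those lists hold, were not analysed here, and some other genes of the lists are not reported here.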

Additional observations from a re-analysis of the deposited data

Results flagged for a closer look

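The irradiation response of PLOD2, a collagen lysyl hydroxylase of the wider HIF target list, differed between the genotypes by a test of the difference itself. It measured 283 and 299 CPM in untreated WT, 110 and 122 CPM in irradiated WT, 48.7 and 92.3 CPM in untreated knockdown and 99.2 and 104 CPM in irradiated knockdown libraries. Both irradiated WT libraries were below both untreated ones, and both irradiated knockdown libraries were above both untreated ones. The log2 change was -1.31 ± 0.24 (SE) in WT and 0.54 ± 0.24 in knockdown cells, and the difference of the 2 was 1.85 ± 0.33 (edgeR's quasi-likelihood test with Benjamini-Hochberg adjustment over all genes, adjusted p = 0.0367). The call was lost without cells above 2 times the median total (1.77, 0.134) and in limma on the mean CPM per cell (1.68, 0.0781), and it held in the other alternatives, with 1.46 without untreated knockdown library 1 and 2.36 without untreated knockdown library 2.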

How the results depend on the processing

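No paired analysis was possible because the labels give no replicate numbers that cross the groups. No log2 change of a named member that passed turned its direction in any alternative, and neither other scaling moved the median of all genes by more than 0.0649. Counts of members that passed depended on the setting. In WT radiation, 6 passed with no low-count filter, 6 by DESeq2's Wald test and 0 with only the compared groups in the fit. Of all genes, 534 of 15028, 569 of 12456 and 33 of 11852 passed there, against 205 of 12456 in the main fit. In knockdown radiation, 6 passed with no filter, 2 without cells above 2 times the median total, 2 with only the compared groups, 4 by DESeq2 and 1 by limma. In the same order 236 of 15028, 68 of 11875, 65 of 11612, 178 of 12456 and 122 of 12456 genes passed. The main fit passed 28 of 12456. The mean over genotypes gave 11 with no filter and 9 by DESeq2, the difference of the responses 2 with no filter, and knockdown against WT after radiation 15 with no filter and 14 by DESeq2. The cause of this dependence on the setting was not tested. A fit of only the compared groups cannot be made for the mean and the difference.

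Leaving out 1 library gave 1 to 4 members in WT radiation, 0 to 4 in knockdown radiation, 4 to 8 in their mean, 0 to 2 in their difference, 9 to 19 in the untreated and 7 to 14 in the irradiated genotype comparison, and 17 to 22 in its mean. The number of all genes that passed also changed with the library left out, so these member counts are not a result about the members. The median change of the enzymes turned to 0.09 in WT radiation without irradiated WT library 2. The share of counts of the other HIF1A targets was 0.213% in untreated WT without the large cells and 0.207% as a mean per cell, and 0.147% in irradiated WT as a mean per cell. The Spearman rho of the class sums was 0.72 in irradiated WT library 1 and 0.16 in irradiated knockdown library 2 at 30000 counts per cell. Leaving out 1 library left the enzyme share between 1.64% and 1.87%, 1.49% and 1.64%, 1.05% and 1.19%, and 0.981% and 1.01% in the 4 groups. With 2 libraries a group and few counts for CA9, ANKRD37 and ALDOC, small changes were not detectable.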
